A study of Homo sapiens with 6 samples.

Results

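The mitochondrial genome is transcribed and its RNA maintained by proteins that are encoded in the nucleus, and 10 of their genes were followed here after knockdown of the RNA helicase DDX17. These genes were taken by symbol from the count table, which lists 29476 genes, and all 10 were found and passed the filter on low counts. A549 cells, an established lung adenocarcinoma line, had been transfected with a nontargeting siRNA (siCtrl, 3 libraries) or with an siRNA against DDX17 (siDDX17, 3 libraries), with no other treatment in either group. The labels carry the words control plasmid and DDX17 knockdown for the same groups, whereas their titles and the study's methods name siRNA. The knockdown rests on 1 siRNA sequence and 1 cell line, polyadenylated RNA was sequenced, and the study's methods call the libraries of a group biological replicates.

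Both strands of the circular mitochondrial DNA are read by a single-subunit RNA polymerase, POLRMT, which starts at the promoters together with TFAM, a protein that bends and also packages this DNA, and TFB2M, which opens it. The long transcripts are cut into mRNAs, rRNAs and tRNAs. LRPPRC and its partner SLIRP then hold most of the mRNAs stable, and MTPAP adds their poly(A) tails. FASTKD2 serves the large rRNA and some mRNAs, and the exoribonuclease PNPT1 degrades RNA with the helicase SUPV3L1. TFB1M, the paralog of TFB2M, methylates the small rRNA. Several of their genes, TFAM, TFB1M and TFB2M among them, are known to be driven in part by the nuclear transcription factors NRF1, GABP and SP1, and the proteins are made in the cytosol and imported.

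The promoters with a match to the NRF1 motif are shown because TFAM, POLRMT, TFB2M and its paralog TFB1M all held one. The mRNAs of NRF1, of the GABP subunit GABPA and of SP1 were called lower in the siDDX17 libraries, as described further on. These were the 3 that fell among 11 listed nuclear regulators of mitochondrial genes, and 3 others rose. With scaling by library size only, GABPA and SP1 did not pass. The promoter windows span 250 bases before to 50 bases after each RefSeq start on GRCh38.p14, and a window was found for all 10 genes. The motif searched was GCGCANGCG on both strands, and the capitals mark its match within 26 bases of flank on each side, written 5′ to 3′ on the strand of the gene.
TFAM, chr10:58385322-58385382, plus strand: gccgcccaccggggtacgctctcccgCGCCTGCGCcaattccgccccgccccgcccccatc
POLRMT, chr19:633527-633587, minus strand: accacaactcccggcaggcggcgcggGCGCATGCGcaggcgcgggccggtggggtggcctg
TFB1M, chr6:155314582-155314642, minus strand: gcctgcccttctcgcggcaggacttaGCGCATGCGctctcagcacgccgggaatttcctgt
TFB2M, chr1:246566243-246566303, minus strand: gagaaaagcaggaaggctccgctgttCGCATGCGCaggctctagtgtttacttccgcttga
MTPAP, chr10:30349313-30349373, minus strand: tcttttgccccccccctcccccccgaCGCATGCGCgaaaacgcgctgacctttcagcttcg

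The NRF1 motif was present in the windows of TFAM, POLRMT, TFB1M and TFB2M and in that of the poly(A) polymerase gene MTPAP. It was not found in the windows of LRPPRC, SLIRP, FASTKD2, PNPT1 and SUPV3L1, which means only that these letters are not there. Across all 27305 promoter windows, 8.05% held this motif, and the share was 14.6% of the 10296 tested genes with a window. In POLRMT 3 overlapping matches began at -24, -23 and -18, and in TFB1M 2 overlapping matches began at -132 and -131. The GABP motif CCGGAAG, present in 10.7% of all windows, was found in POLRMT, TFB1M and SLIRP. A letter match to SP1, GGGCGG, is found in 44.6% of all windows and was found in TFAM, POLRMT, TFB1M, TFB2M and PNPT1, with 5 matches in TFAM, some of which overlap one another. No match overlapped a match of another motif. These matches describe letters and not bound sites.

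**Figure D1:**
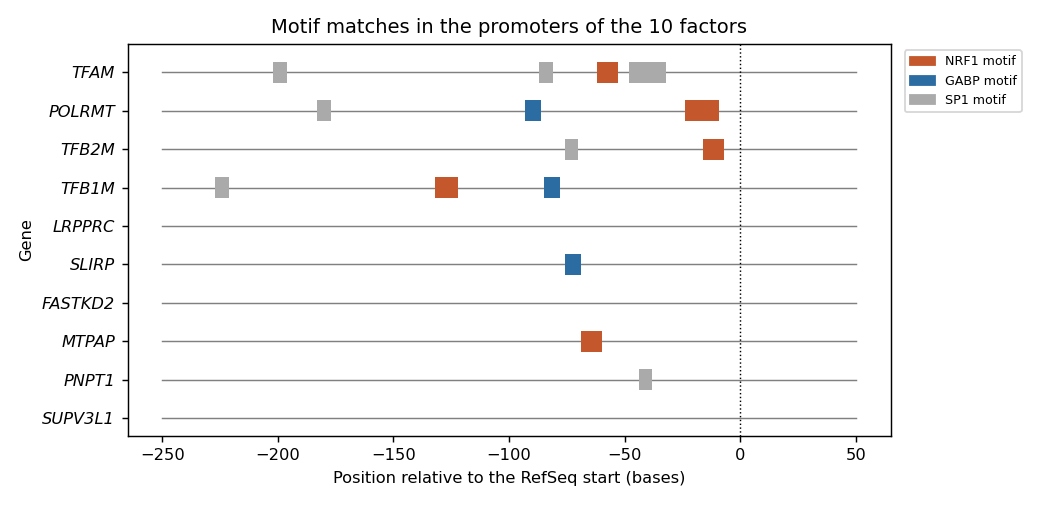
Positions of matches to the NRF1, GABP and SP1 motifs (coloured bars, to scale) in the promoter windows of the 10 genes; the horizontal axis is the distance from the RefSeq start in bases and each line is 1 gene. NRF1 matches lie in TFAM, POLRMT, TFB2M, TFB1M and MTPAP, and the windows of LRPPRC, FASTKD2 and SUPV3L1 hold none of the 3 motifs.

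The 6 libraries held between 30658136 and 39182371 counts, and the biological coefficient of variation common to all genes, the relative spread between libraries of a group, was 0.0754. Levels are given as CPM, counts brought to a common library size with TMM factors that even out differences in RNA composition, unless FPKM is named. DDX17 stood at 177, 184 and 206 CPM in siCtrl 1, 2 and 3 and at 32.1, 30.8 and 30.4 CPM in the siDDX17 libraries, a fall of 83.5%. Of 5 epithelial markers, the keratins KRT8, KRT18 and KRT7 were abundant in all 6 libraries and were called lower in siDDX17. Their log2 fold changes were -0.28, -0.18 and -0.64 (edgeR adjusted p = 0.0022, 0.033 and 2.0e-06). CDH1 was low at 17.1 CPM in siCtrl and 15.7 CPM in siDDX17. EPCAM was near 0, at 0.883 CPM in siCtrl and 2.24 CPM in siDDX17 (log2 fold change 1.35, edgeR adjusted p = 7.7e-05). The genes AKR1B10, AKR1C1, NQO1 and ALDH1A1, known to be high in A549 cells, were abundant. Of these, AKR1B10, AKR1C1 and NQO1 were called lower, at -0.33, -0.49 and -0.22 (edgeR adjusted p = 0.0012, 4.3e-05 and 0.0071). ALDH1A1 did not pass at -0.14 (edgeR adjusted p = 0.062). The alveolar genes SFTPB, SFTPC and NKX2-1 were near 0. Of 6 genes of leukocytes, endothelium and fibroblasts, PTPRC, PECAM1 and VWF were near 0, CD68 stood at 1.12 CPM in siCtrl and 1.60 CPM in siDDX17, and COL1A1 at 3.18 and 2.64 CPM. ACTA2, the smooth muscle actin of contractile fibroblasts, rose from 10.6 to 26.3 CPM (log2 fold change 1.31, edgeR adjusted p = 1.1e-07). The summed level of these 6 genes ran from 14.1 to 16.3 CPM in siCtrl and from 28.8 to 32.6 CPM in siDDX17. Most of it was ACTA2, and the part of all these markers in the results was not tested. The library siCtrl 1 stood apart from the others of its group. It was the highest or lowest siCtrl library for 77.8% of tested genes, against 58.9% for siCtrl 2 and 63.3% for siCtrl 3, and for all 10 of the genes followed here, so results are given with and without it. A difference in level within each cell and a difference in the share of cells with a high level cannot be told apart in these bulk libraries.

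Of the 10 genes, LRPPRC rose, TFAM, TFB2M and SUPV3L1 fell, and 6 did not pass the test (edgeR quasi-likelihood test, adjusted p under 0.05 over 15615 genes, no fold limit). TFAM fell by 17.7%, TFB2M fell by 18.8% and SUPV3L1 fell by 17.4%, whereas LRPPRC rose by 38.3%. Among all tested genes, 24.5% were higher and 24.3% lower by the same limit, so 1 higher and 3 lower of 10 are shares near those of the transcriptome. The median log2 fold change was 0.03 over the 10 genes and 0.01 over all tested genes. None of the 10 met the limits of the study's methods, p under 0.01 with a fold change over 1.5, which 11.0% of all genes met upwards and 8.03% downwards. By the CPM values alone, 1 gene was higher without overlap between the groups and 3 were lower, where 28.8% and 27.7% of all genes were so. Without siCtrl 1, POLRMT also fell, which gave 1 higher and 4 lower against 26.4% and 27.0% of all genes. With scaling by library size only, which moved the median of all genes by 0.12 on the log2 scale, LRPPRC and PNPT1 were higher and none was lower, against 33.5% and 16.0% of all genes.

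**Figure D2:**
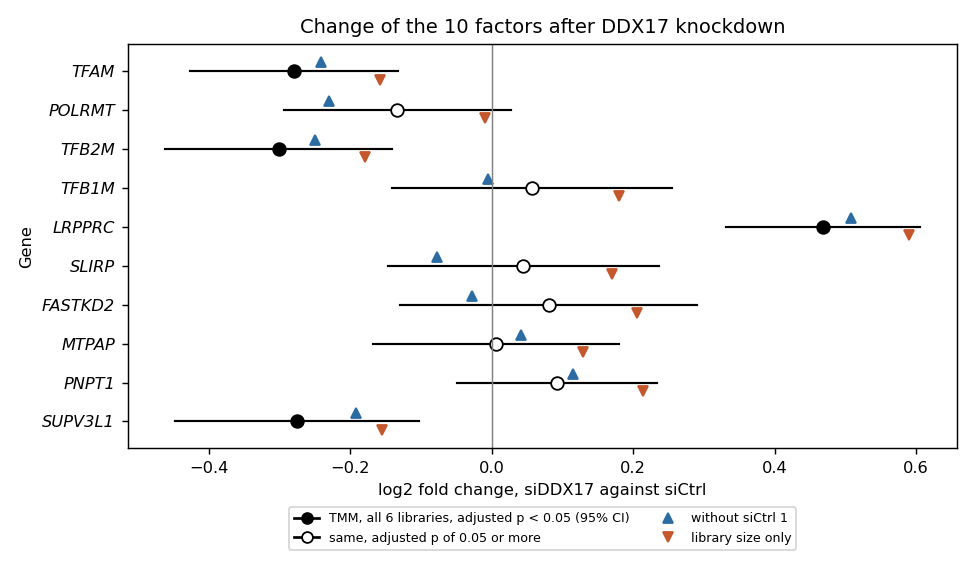
Log2 fold change (horizontal axis) of each of the 10 genes in siDDX17 against siCtrl, 3 libraries each; circles are the TMM-scaled edgeR estimates with 95% confidence intervals, filled where the adjusted p was under 0.05, and triangles are the estimates without siCtrl 1 or with library size only. LRPPRC lies to the right of 0 under all 3 settings, and TFAM, TFB2M and SUPV3L1 lie to the left, closer to 0 with library size only.

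Among the genes of the transcription machinery, TFAM and TFB2M fell by similar amounts. TFAM (chr10:58385345-58399220, plus strand) stood at 53.3, 49.7 and 47.1 CPM in siCtrl 1, 2 and 3 and at 43.4, 38.3 and 41.8 CPM in siDDX17 1, 2 and 3. All siDDX17 libraries lay below all siCtrl libraries on this scale, with a log2 fold change of -0.28 (SE 0.07, n = 3 per group, edgeR adjusted p = 0.0040). On the FPKM scale, which is per gene length and not scaled by TMM, TFAM was 8.47 ± 0.660 (SD, n = 3) in siCtrl and 7.63 ± 0.544 in siDDX17, and the highest siDDX17 library at 8.04 lay above the lowest siCtrl library at 7.98. TFB2M (chr1:246540561-246566261, minus strand) stood at 31.7, 29.2 and 27.1 CPM against 24.5, 22.9 and 24.0 CPM, again without overlap, and its log2 fold change was -0.30 (SE 0.07, edgeR adjusted p = 0.0044). With library size only, the log2 fold changes were -0.16 for TFAM and -0.18 for TFB2M and neither passed (edgeR adjusted p = 0.104 and 0.0897). Without siCtrl 1 they were -0.24 and -0.25 and both passed (edgeR adjusted p = 0.00096 and 0.0029).

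POLRMT, the polymerase (chr19:617221-633537, minus strand), stood at 56.1, 67.2 and 68.6 CPM in siCtrl and at 57.9, 60.5 and 56.5 CPM in siDDX17. The groups overlapped only through siCtrl 1, which was the lowest of all 6 libraries, and the log2 fold change was -0.13 (95% interval -0.29 to 0.03, edgeR adjusted p = 0.155). When siCtrl 1 was left out, POLRMT passed at -0.23 (edgeR adjusted p = 0.00051). Its value with library size only was -0.01. TFB1M, the rRNA methyltransferase (chr6:155256134-155314493, minus strand), stood at 11.0, 12.1 and 12.6 CPM against 13.3, 12.5 and 11.3 CPM, and the groups overlapped. Its log2 fold change was 0.06 (95% interval -0.14 to 0.25, edgeR adjusted p = 0.638). TFB1M shares 30.7% of its exon bases with TIAM2 on the opposite strand, and TIAM2 averaged 54.7 counts where TFB1M averaged 432. This sharing could touch the level of TFB1M where reads were counted without strand. On the same strand, a long noncoding RNA gene shares 14.4% and averaged 22.5 counts, which use of strand would not set apart.

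Within each library, the level of TFB1M relative to its paralog TFB2M can be read as a log2 ratio of counts, which does not depend on scaling. This ratio was -1.52, -1.27 and -1.11 in siCtrl and -0.88, -0.87 and -1.09 in siDDX17, so TFB2M exceeded TFB1M in all 6 libraries. The groups did not overlap, the mean difference was 0.36, and the exact permutation p was 0.1, the smallest that 3 libraries against 3 can give (Benjamini-Hochberg adjusted 0.15 over 6 quantities). Without siCtrl 1 the difference was 0.24. TFAM relative to POLRMT overlapped between the groups (difference -0.15, two-sided exact permutation p = 0.6, adjusted 0.6), as did TFB2M relative to POLRMT (difference -0.17, exact permutation p = 0.4, adjusted 0.48). Without siCtrl 1 these differences were -0.01 and -0.02.

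**Figure D3:**
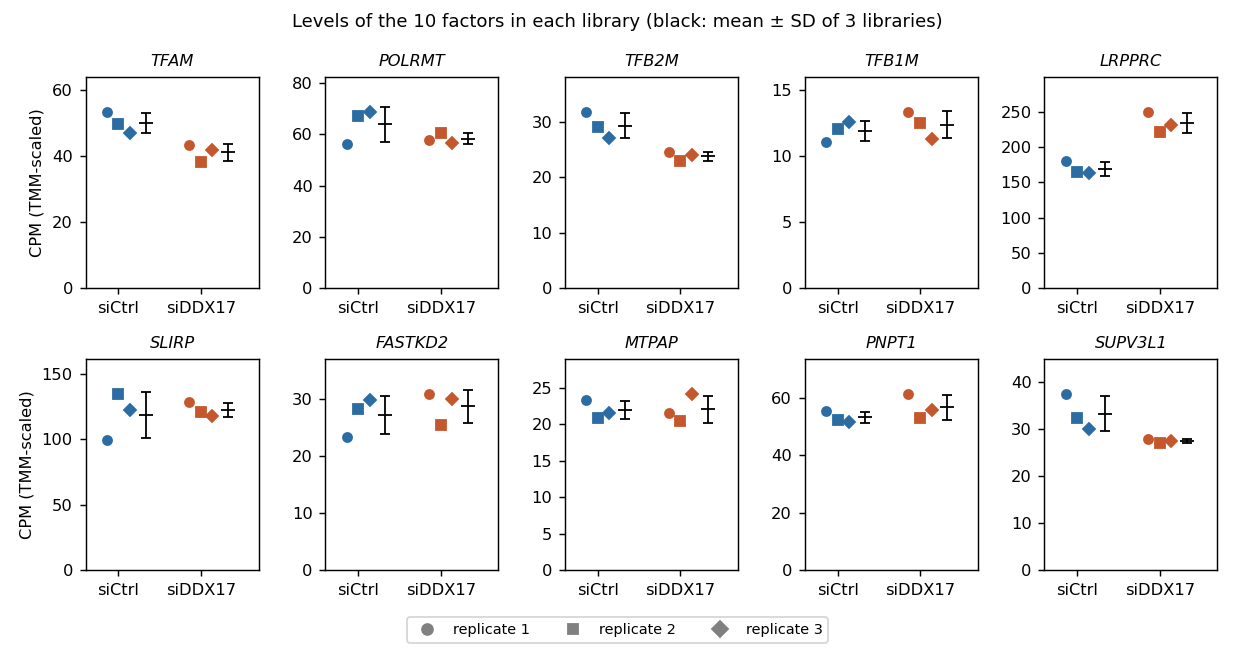
TMM-scaled CPM (vertical axes from 0) of the 10 genes in each library, siCtrl in blue and siDDX17 in orange, with the replicate number given by the symbol and the mean ± SD of 3 libraries in black. LRPPRC stands higher in all siDDX17 libraries, TFAM, TFB2M and SUPV3L1 stand lower, and the siCtrl 1 circle is the outermost siCtrl point in all 10 panels.

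LRPPRC carried the largest change of the 10 genes. This gene of 38 exons in its canonical transcript (chr2:43886224-43996226, minus strand) encodes the pentatricopeptide repeat protein that holds mitochondrial mRNAs in a stable pool. It stood at 181, 164 and 163 CPM in siCtrl and at 249, 222 and 231 CPM in siDDX17, with every siDDX17 library above every siCtrl library. The log2 fold change was 0.47 (SE 0.06, edgeR adjusted p = 4.6e-05), a fold of 1.38 with a 95% interval of 1.26 to 1.52. It passed in all 15 alternative analyses that set no fold limit, at 0.42 to 0.59.

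SLIRP, the RNA-binding partner of LRPPRC (chr14:77708071-77761104, plus strand), did not follow that rise within the error of the data. It stood at 99.5, 134 and 123 CPM in siCtrl and at 129, 121 and 118 CPM in siDDX17, with siCtrl 1 the lowest and siCtrl 2 the highest of all 6 libraries. The log2 fold change was 0.04 (95% interval -0.15 to 0.24, edgeR adjusted p = 0.706), and it was -0.08 without siCtrl 1. The log2 ratio of LRPPRC to SLIRP counts was 0.86, 0.29 and 0.41 in siCtrl and 0.96, 0.87 and 0.98 in siDDX17. By this ratio the siDDX17 libraries lay above all siCtrl libraries, with siCtrl 1 close below them, and the mean difference was 0.41 (exact permutation p = 0.1, adjusted 0.15), or 0.58 without siCtrl 1. On the opposite strand, SNW1 shares 4.48% of the exon bases of SLIRP, and SNW1 averaged 2773.5 counts where SLIRP averaged 4285. This could touch the level of SLIRP where reads were counted without strand. On the same strand, C14orf178 shares 10.3% of the exon bases of SLIRP.

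The gene for the enzyme that adds poly(A) tails, MTPAP, and FASTKD2, which serves the large rRNA and some mRNAs, did not pass the test. MTPAP, the poly(A) polymerase (chr10:30309801-30374448, minus strand), stood at 23.3, 20.9 and 21.6 CPM in siCtrl and at 21.5, 20.4 and 24.1 CPM in siDDX17, and the siDDX17 libraries held both the lowest and the highest value. Its log2 fold change was 0.01 (95% interval -0.17 to 0.18, edgeR adjusted p = 0.956). On the same strand, GOLGA2P6 shares 19.5% of the exon bases of MTPAP and averaged 0.5 counts. FASTKD2 (chr2:206765357-206796189, plus strand) stood at 23.4, 28.4 and 29.9 CPM against 30.9, 25.5 and 30.1 CPM, overlapping widely. Its log2 fold change was 0.08 (95% interval -0.13 to 0.29, edgeR adjusted p = 0.521). Both intervals lie below that of LRPPRC.

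The degradation pair moved unequally. SUPV3L1, the helicase (chr10:69180234-69209099, plus strand), stood at 37.4, 32.4 and 30.1 CPM in siCtrl and at 27.9, 27.0 and 27.6 CPM in siDDX17. On this scale the siDDX17 values lay close together and below all siCtrl values, of which siCtrl 1 was the highest. The log2 fold change was -0.28 (SE 0.08, edgeR adjusted p = 0.011), and -0.19 without siCtrl 1 (edgeR adjusted p = 0.014). On the FPKM scale the groups overlapped, with siDDX17 1 at 11.27 above siCtrl 3 at 11.1. The call was lost without siDDX17 2, at -0.26 (edgeR adjusted p = 0.051), and with library size only, at -0.15 (edgeR adjusted p = 0.173). It was also lost with both limma fits on FPKM. PNPT1, the ribonuclease (chr2:55634061-55693863, minus strand), stood at 55.4, 52.4 and 51.5 CPM against 61.1, 52.8 and 55.9 CPM, and the groups overlapped. Its log2 fold change was 0.09 (95% interval -0.05 to 0.23, edgeR adjusted p = 0.265), and with library size only it passed at 0.21 (edgeR adjusted p = 0.026). The log2 ratio of PNPT1 to SUPV3L1 counts was 0.57, 0.69 and 0.78 in siCtrl and 1.13, 0.97 and 1.02 in siDDX17. By this ratio, which no scaling touches, the groups did not overlap, with a mean difference of 0.36 (exact permutation p = 0.1, adjusted 0.15) and of 0.31 without siCtrl 1.

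Compared per gene length in FPKM, the 10 genes spanned a wide range in the siCtrl libraries. SLIRP was the most abundant at 74.0 ± 9.49 FPKM (SD, n = 3), followed by LRPPRC at 23.3 ± 1.83 FPKM, and each was separate from the next gene in all 3 libraries. POLRMT (15.3 FPKM), TFB2M (14.5 FPKM), SUPV3L1 (12.3 FPKM) and PNPT1 (11.0 FPKM) came next, and no neighbours among them differed beyond their spread. TFAM at 8.47 FPKM lay below PNPT1 without overlap, and TFAM, TFB1M (7.64 FPKM) and FASTKD2 (7.56 FPKM) overlapped from neighbour to neighbour. MTPAP was the lowest at 3.58 ± 0.284 FPKM and separate from FASTKD2. In siDDX17, LRPPRC stood at 35.3 ± 2.26 FPKM, PNPT1 at 12.9 FPKM lay above SUPV3L1 at 11.1 FPKM without overlap, and TFAM at 7.63 FPKM was ninth in the order, overlapping TFB1M above it.

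Matches to the seed of the siRNA strands were looked up in the 3′ UTRs of the canonical transcripts (GENCODE release 44), since a small RNA can pair with mRNAs through bases 2 to 8. For the antisense strand of siDDX17 the 7-base match is TATTGCT, which was found in TFAM and PNPT1 and is held by 14.5% of 12986 genes. That of its sense strand, ATGGGTG, was found in MTPAP and is held by 10.5% of those genes. The sites are shown with the match in capitals and 10 bases on each side.
TFAM, from base 2726 of a 3′ UTR of 4146 bases: agtctcattaTATTGCTcaggctggag
PNPT1, from base 964 of 2176 bases: tgaatatgtgTATTGCTctaatgtatg
MTPAP, from base 365 of 3808 bases: gccacaaggaATGGGTGaaagattatt
Of these 3 genes TFAM fell and PNPT1 and MTPAP did not pass the test. LRPPRC, TFB2M and SUPV3L1, with 3′ UTRs of 2376, 470 and 58 bases, hold neither match. None of the 10 genes holds the matches to the control siRNA, TGTCACG and TCGGAGA. The 3′ UTRs of POLRMT and SLIRP span 53 and 37 bases. A short 3′ UTR has little room for a match, and the shares above are over 3′ UTRs of all lengths, so absence there says little. Whether a site had a part in the level of its gene was not tested.

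The RNAs on which these factors act were lower in the siDDX17 libraries. Genes of the mitochondrial DNA took 14.1%, 13.9% and 12.9% of counts in siCtrl 1, 2 and 3 and 10.8%, 10.4% and 10.2% in siDDX17 1, 2 and 3. The groups did not overlap, with means of 13.6% ± 0.635 and 10.5% ± 0.316 (SD, n = 3, exact permutation p = 0.1, adjusted 0.15). All 13 mitochondrial mRNAs fell (edgeR, adjusted p under 0.05), with a median log2 fold change of -0.57, and 12 of them passed with library size only, at a median of -0.45. Without siCtrl 1 all 13 passed, at a median of -0.54. The smallest fall was that of MT-ND3, a subunit of complex I, which stood at 2699, 2914 and 2445 CPM in siCtrl and 2298, 2507 and 2205 CPM in siDDX17 and was the 1 mRNA whose groups overlapped (log2 fold change -0.20, edgeR adjusted p = 0.038). It did not pass with library size only, at -0.08. What part the changes of TFAM, TFB2M, LRPPRC or SUPV3L1 had in these levels was not tested.

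The largest fall among the mitochondrial mRNAs, that of MT-ND6, rested on siCtrl 1. MT-ND6, the only mRNA encoded on the opposite strand to all other mitochondrial mRNAs, stood at 450, 106 and 121 CPM in siCtrl and at 71.0, 87.9 and 72.3 CPM in siDDX17. Its log2 fold change was -1.55 (SE 0.40, edgeR adjusted p = 0.0058), and -0.57 without siCtrl 1 (edgeR adjusted p = 1.9e-09). The 9 genes of that strand, MT-ND6 and 8 tRNA genes, took 0.339% of mitochondrial counts in siCtrl 1 and between 0.0797% and 0.105% in the other 5 libraries. Use of strand in counting is not stated, so reads of the 2 strands cannot be told apart here. Of the rRNAs, MT-RNR1 passed the test and MT-RNR2 did not. MT-RNR1, the small rRNA, stood at 2583, 3465 and 2894 CPM against 2398, 2235 and 2184 CPM (log2 fold change -0.39, edgeR adjusted p = 0.0028). MT-RNR2, the large rRNA, overlapped between the groups (log2 fold change -0.25, edgeR adjusted p = 0.070) and passed without siCtrl 1, at -0.39. Selection of polyadenylated RNA limits what these levels say of MT-ND6 and of the rRNAs.

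**Figure D4:**
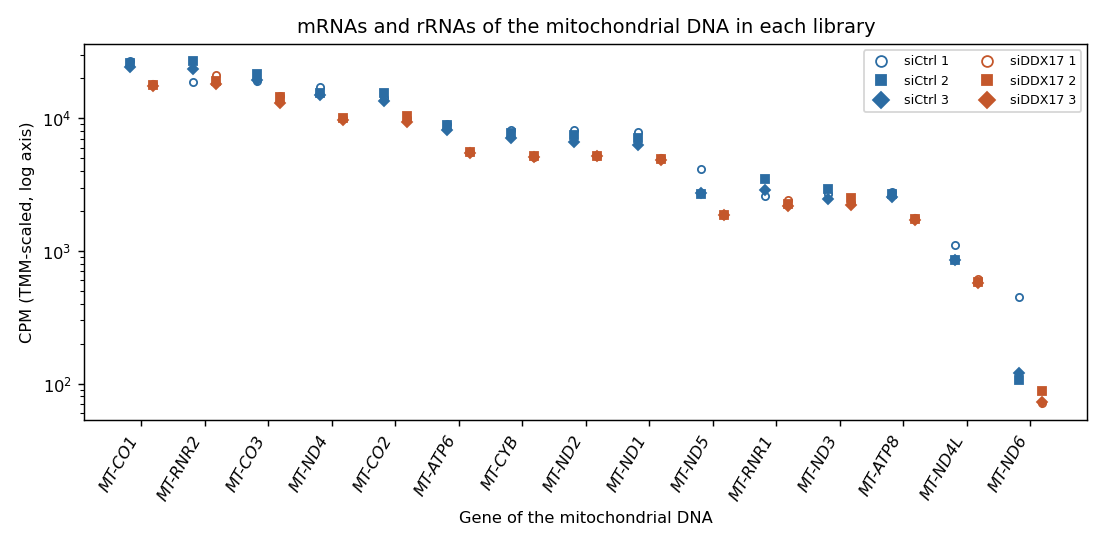
TMM-scaled CPM (vertical log axis) of the 13 mRNAs and 2 rRNAs of the mitochondrial DNA in each of the 6 libraries, siCtrl in blue and siDDX17 in orange, with replicate 1 as open circles. The siDDX17 points lie below the siCtrl points for all mRNAs except MT-ND3, and MT-ND6 in siCtrl 1 (450 CPM) stands apart from siCtrl 2 and 3 (106 and 121 CPM).

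Among the other nuclear genes of mitochondrial gene expression, calls were found in both directions. Of 76 such genes in 5 lists, 13 were higher, 23 were lower and 40 did not pass (edgeR, adjusted p under 0.05), with a median log2 fold change of -0.06, where 24.5% and 24.3% of all tested genes were higher and lower. With library size only, 22 were higher and 10 lower, against 33.5% and 16.0% of all genes. Without siCtrl 1 the counts were 16 and 27, against 26.4% and 27.0%. Lower calls outnumbered higher calls with TMM scaling, with and without siCtrl 1, and higher calls outnumbered lower calls with library size only. No test over the lists was run, and nothing particular to the lists is read from these counts. In the 6 further transcription genes, MTERF3, a negative regulator of mitochondrial transcription, fell by 0.37 on the log2 scale (edgeR adjusted p = 0.0082), and the elongation factor TEFM did not pass at 0.22 (edgeR adjusted p = 0.062). Both calls turned with library size only, where MTERF3 did not pass at -0.24 (edgeR adjusted p = 0.057) and TEFM passed at 0.34 (edgeR adjusted p = 0.0067). MTERF3 was also lost without siDDX17 3 (-0.30, edgeR adjusted p = 0.053) and with both limma fits on FPKM.

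In the list for excision and turnover of RNA, 2 of 17 genes rose and 4 fell. The pentatricopeptide repeat gene PTCD1, related to LRPPRC by that repeat, rose to 21.2 ± 0.225 CPM (SD, n = 3) from siCtrl values of 14.8, 15.4 and 14.8 CPM (log2 fold change 0.50, edgeR adjusted p = 6.3e-05), and ANGEL2, a 2′,3′-cyclic phosphatase, rose by 0.33. TBRG4, a FASTK family gene like FASTKD2, fell to a log2 fold change of -0.39 (edgeR adjusted p = 0.00058), and GRSF1, a protein of the mitochondrial RNA granules, to -0.23 (edgeR adjusted p = 0.0070). The median over the 17 genes was -0.05. With library size only, 4 rose and 1 fell, and GRSF1 did not pass at -0.11.

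In the 25 genes that modify tRNA and rRNA or build the mitochondrial ribosome, 4 rose and 7 fell, with a median of -0.06. TRMU, which thiolates mitochondrial tRNAs, fell from 27.0, 29.9 and 29.4 CPM to 12.7, 12.6 and 13.0 CPM, a log2 fold change of -1.17 (edgeR adjusted p = 4.5e-08). The helicase DHX30 fell to -0.58 (edgeR adjusted p = 1.1e-05), whereas the pseudouridine synthase RPUSD4 rose by 0.65 and the rRNA methyltransferase NSUN4 by 0.41. These 4 genes, when scaled by library size only, kept their direction and their call.

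In the list for replication and upkeep of the mitochondrial DNA, 4 of 17 genes were higher and 8 lower, with a median of -0.13. Of all tested genes, 24.5% were higher and 24.3% lower. With library size only, 4 were higher and 4 lower, against 33.5% and 16.0% of all genes. TOP1MT, the mitochondrial topoisomerase, rose from 16.9, 20.1 and 17.7 CPM to 47.8, 45.5 and 48.6 CPM (log2 fold change 1.38, edgeR adjusted p = 1.5e-08). LONP1, the matrix protease that is known to degrade TFAM protein, rose from 73.1, 69.6 and 75.1 CPM to 160, 169 and 159 CPM (log2 fold change 1.16, edgeR adjusted p = 6.1e-09). MGME1, an exonuclease of mitochondrial DNA, fell from 50.1, 52.6 and 52.0 CPM to 26.3, 25.1 and 24.6 CPM (log2 fold change -1.02, edgeR adjusted p = 3.1e-08), and the primase-polymerase PRIMPOL fell to -0.67. TFAM protein was not measured in these data. Copies of mitochondrial DNA were likewise not measured.

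Among the 11 nuclear transcription factors and coactivators of mitochondrial genes, 3 rose and 3 fell, with a median of 0.06. NRF1 stood at 12.1, 10.9 and 12.1 CPM in siCtrl and at 8.69, 9.33 and 8.10 CPM in siDDX17, without overlap (log2 fold change -0.43, edgeR adjusted p = 0.0017). GABPA, the DNA-binding subunit of GABP, fell to -0.46 (edgeR adjusted p = 0.0069), and SP1 to -0.23 (edgeR adjusted p = 0.020). The coactivator PPARGC1A stood at 2.38 ± 0.469 CPM (SD, n = 3) in siCtrl and 3.59 ± 0.437 CPM in siDDX17. This was a rise of 0.59 on the log2 scale from low levels (edgeR adjusted p = 0.010). GABPB2, a further GABP subunit, rose by 0.44 (edgeR adjusted p = 0.017). ESRRA rose from a mean of 50.5 CPM to 59.4 CPM (log2 fold change 0.23, edgeR adjusted p = 0.0057). With library size only, NRF1 still passed at -0.31, and GABPA at -0.34 (edgeR adjusted p = 0.0505) and SP1 at -0.11 (edgeR adjusted p = 0.300) did not.

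Read against the promoter windows, the 5 genes with an NRF1 match did not move as 1 group. TFAM and TFB2M fell, POLRMT fell only without siCtrl 1, and TFB1M and MTPAP had log2 fold changes of 0.06 and 0.01. Over all 1504 tested genes with the motif the median log2 fold change was -0.04, against 0.0016 over the 10296 tested genes with a window. The same median was -0.04 for the 1910 tested genes with the GABP motif and -0.01 for the 7182 with the SP1 motif. Of tested genes with the NRF1, GABP and SP1 motifs, 29.99%, 28.48% and 27.35% were called lower. The share was 25.92% of all tested genes with a window. The shares called higher were not compared, and whether these lower shares differ beyond chance was not tested. Of the 5 genes without the NRF1 motif, LRPPRC rose, SUPV3L1 fell and 3 did not pass. Whether NRF1 acts on these promoters was not tested.

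**Figure D5:**
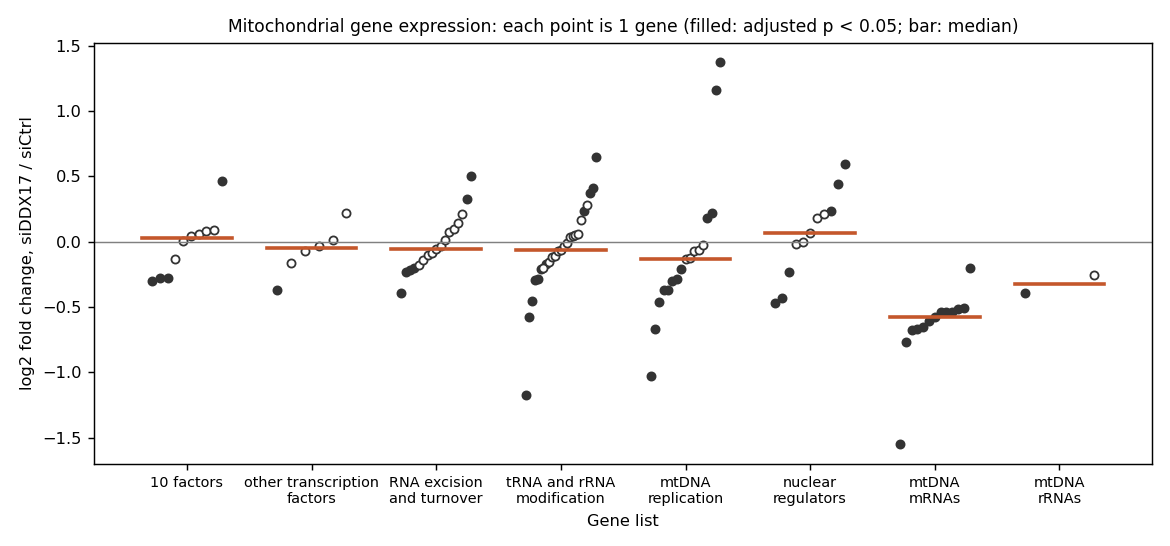
Log2 fold change (vertical axis) of every gene in the 8 lists, in siDDX17 against siCtrl with TMM scaling, 3 libraries each; filled points had an adjusted p under 0.05 and bars are list medians. The 10 factors scatter on both sides of 0 (median 0.03), the 13 mitochondrial mRNAs all lie below 0 (median -0.57), and the replication list runs from MGME1 at -1.02 to TOP1MT at 1.38.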

How the data were processed

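RNA-seq of polyadenylated RNA was performed by the authors in 6 libraries. Per the labels the kit marked strand, and use of strand in counting, the counting program and the annotation version are not given in the sources used here. After trimming, the authors aligned the reads to GRCh38 with TopHat2, used unique alignments and deposited raw counts of reads per gene. They also deposited FPKM values, normalized for gene length and library size, so FPKM served for comparing levels between genes.

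The counts were analysed with edgeR 4.0.16 in R 4.3.3 (filterByExpr, TMM, glmQLFit and glmQLFTest on 6 libraries, Benjamini-Hochberg adjustment over 15615 genes), which was tested on simulated counts first. The simulation changed far fewer genes than were called here, equally up and down, so it says little of calls that depend on scaling. The call limit was an adjusted p under 0.05, with no limit on fold. Shares and ratios within a library were compared with two-sided exact permutation tests. DESeq2 1.42.0, limma 3.58.1 on log2(FPKM + 1) and log2(FPKM + 0.1), other scalings and filters, and the left-out libraries were alternatives. Filtering and scaling decide which small changes pass. Counts per library were between 30658136 and 39182371. The edgeR p-values set the group difference against the spread between these libraries, and spread between siRNAs or cell lines is not covered.

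The 10 genes and all lists were chosen with earlier results of these data known, and the lists are not independent evidence. From each list of nuclear genes the 2 highest and 2 lowest log2 fold changes among called genes with a mean of at least 10 counts were named, and from the mitochondrial DNA the highest and lowest mRNA and both rRNAs. TEFM, MRPL12, SP1 and ESRRA were named after their values were seen. Locations are from GENCODE release 44 on GRCh38, promoter sequences from RefSeq on GRCh38.p14. The 7-base matches were derived from the siRNA sequences in the study's methods. Python 3.11.15 was used. A marker gene is not reported here, and splicing was not analysed here.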

Additional observations from a re-analysis of the deposited data

How the results depend on the processing

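LRPPRC kept its direction and its call in all 15 alternatives that set no fold limit, and DDX17, at -2.66 to -2.54 with 1 library left out, did too. With library size only and with limma on both FPKM scales, 2 of the 10 factors were higher and 0 lower, and with both fold limits 0 were higher and 0 lower. Over all genes, 1713 were higher and 1254 lower by the limits of the methods, and 726 and 456 with a log2 fold change over 1. With library size only, 5230 of 15615 genes were higher and 2494 lower. With limma, 5205 were higher and 2369 lower on log2(FPKM + 1), and 5210 and 2374 on log2(FPKM + 0.1). Nothing particular to the 10 factors is read from these counts. Of the further transcription genes, 2, TEFM and MRPL12 but not MTERF3, were called with library size only and with both limma fits, and of the replication genes 7 with both limma fits. The mitochondrial rRNAs had 2 calls with no low-count filter and 0 with both limma fits.

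With 1 library left out, the 10 factors had 1 higher and between 2 and 4 lower, the lists of transcription, excision and turnover, and rRNA genes had 0 to 2, 4 to 10 and 1 to 2 calls, and all genes 3189 to 4220 higher and 3101 to 4312 lower. The 10 calls for excision and turnover and the 2 for rRNAs came without siCtrl 1, the 2 transcription calls, TEFM and MTERF3, without siCtrl 2 and the 0 without siDDX17 3. Log2 fold changes near 0 changed sign. POLRMT went to 4.9e-05 with limma on log2(FPKM + 0.1). With 1 library left out, TFB1M ran from -0.0060 (without siCtrl 1) to 0.12 and was -0.00028 without siDDX17 1, SLIRP ran from -0.078 (without siCtrl 1) to 0.13, FASTKD2 from -0.028 (without siCtrl 1) to 0.16, and MTPAP from -0.063 (without siDDX17 3) to 0.056, with -0.035 and -0.0075 without siCtrl 2 and 3. MTPAP was also -0.00081 with RLE scaling and -0.00083 with DESeq2. The causes were not tested.

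Libraries with the same replicate number did not visibly deviate together (correlations over genes 0.01, 0.04 and -0.06). With 3 libraries per group, these values cannot settle whether libraries were handled in pairs. With the number as a block, the 10 factors still had 1 higher and 3 lower, and 3743 genes were higher and 3738 lower.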

Other observations

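The tRNA genes of the mitochondrial DNA gave few counts in these libraries. Selection of polyadenylated RNA limits what these counts say of tRNA levels. Of 22 genes, 18 passed the filter on low counts, of which 12 were lower, 0 were higher and 6 did not pass (edgeR, adjusted p under 0.05), with a median log2 fold change of -0.61. The most abundant was MT-TL1, the tRNA for leucine that lies behind MT-RNR2, with a mean of 23.0 ± 3.04 CPM (SD, n = 3) in siCtrl and 16.4 ± 0.663 CPM in siDDX17 (log2 fold change -0.49, edgeR adjusted p = 0.00067). MT-TF and MT-TV, the tRNAs that flank MT-RNR1, stood at log2 fold changes of 0.31 and 0.38 (edgeR adjusted p = 0.060 and 0.138), the 2 positive values among the 18. Without siCtrl 1, 7 were lower and 1, MT-TF, was higher. MT-TL1, MT-TF and MT-TV were chosen after their values were seen.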
